A study of Homo sapiens with 2 samples.

Results

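Cells with high RNA of glycolysis and hypoxia genes were chosen within single-cell libraries of CHLA9 and TC71, established cell lines of Ewing sarcoma. Each kept cell was given a score over 9 genes, the mean of the natural log of 1 plus the gene's unique molecular identifiers (UMIs) per 10000 UMIs of the cell, and the 10% of cells with the highest score in each library were taken. These score-high cells numbered 452 of the 4524 kept cells of CHLA9 and 173 of the 1729 kept cells of TC71, or 625 of 6253 in all. The measured levels of the 9 genes chose the cells, so the score and these genes are described and not tested. The scores of the cells just inside and just outside the limit were 0.8866 and 0.8865 in CHLA9, and 1.03 and 1.028 in TC71.

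The study looked at how Ewing sarcoma cells, which carry a fusion of EWSR1 with an ETS gene such as FLI1, relate to developmental tissues, and its single-cell libraries served to look at differences among tumor cells. CHLA9 was grown in IMDM with serum, insulin, transferrin and selenite, and TC71 in RPMI with a smaller share of serum, both in room air with added CO2, without any treatment, and the cells were taken off with trypsin before confluence. Each line is represented by 1 droplet library made with the 10x Genomics 3′ kit, and the CHLA9 library was sequenced on a second instrument as well, so line, medium and sequencing cannot be told apart. A p-value would treat the cells of a library as replicates and none is given. The 95% intervals cover counting error only.

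The libraries held 178489774 UMIs over 5077 barcodes in CHLA9 and 75408445 UMIs over 8468 barcodes in TC71. Barcodes under 5000 UMIs (277 in CHLA9 and 5869 in TC71), then those under 2000 genes (95 and 269) or over 15% mitochondrial UMIs (181 and 601), were left out. Only 3 kept barcodes occurred in both libraries. Of the 8 defining markers of Ewing sarcoma cells, 5 were measured in CHLA9 and 6 in TC71, none of them past a 1.2-fold difference between score-high and other kept cells. The summed level of 14 markers of leukocytes, endothelium, fibroblasts and red cells was 41.2 UMIs per 1000000 UMIs (CPM) in the score-high cells and 43.8 in the other cells of CHLA9, and 8.97 and 8.06 CPM in TC71, and CD3E, VWF and HBB had no UMI in the kept cells of either line.

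Glycolysis splits glucose into pyruvate in the cytosol, and lactate dehydrogenase turns pyruvate into lactate when it is not burned in the mitochondria. Hypoxia-inducible factors are transcription factors that the oxygen-dependent prolyl hydroxylases (EGLN) and the VHL ubiquitin ligase keep low in normal oxygen. When stable, they bind DNA at cores such as ACGTG. These factors raise glucose uptake, glycolysis, angiogenic signals and mitophagy, and they lower the entry of pyruvate into the citric acid cycle. Of the 9 genes of the score, SLC2A1 is a glucose transporter, ALDOA, PGK1, ENO1 and LDHA are enzymes of glycolysis and lactate formation, PDK1 inhibits pyruvate dehydrogenase, BNIP3 is a mitophagy receptor, P4HA1 hydroxylates collagen and VEGFA is the vascular growth factor.

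Promoters of 5 genes that were higher in the score-high cells of TC71 are shown, all taken from those that hold the core motif, so that it can be seen beside the values that follow. Each is a RefSeq sequence of GRCh38.p14 from 250 bases before to 50 bases after the start site, written 5′ to 3′ along the gene's strand, with ACGTG and its reverse complement CACGT in capitals. The palindrome CACGTG counts on both strands and is also the E-box that MYC family factors bind. BNIP3 lies on the minus strand at chr10:131981874-131982173, FAM162A on the plus strand at chr3:122383932-122384231, DDIT4 on the plus strand at chr10:72273674-72273973, EGLN1 on the minus strand at chr1:231422238-231422537 and LDHA on the plus strand at chr11:18394313-18394612.
BNIP3: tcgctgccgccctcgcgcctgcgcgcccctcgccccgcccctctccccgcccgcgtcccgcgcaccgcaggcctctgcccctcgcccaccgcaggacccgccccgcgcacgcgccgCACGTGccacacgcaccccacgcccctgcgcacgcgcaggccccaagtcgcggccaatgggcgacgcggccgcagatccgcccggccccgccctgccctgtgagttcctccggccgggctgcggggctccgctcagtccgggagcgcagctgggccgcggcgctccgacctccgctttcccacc
FAM162A: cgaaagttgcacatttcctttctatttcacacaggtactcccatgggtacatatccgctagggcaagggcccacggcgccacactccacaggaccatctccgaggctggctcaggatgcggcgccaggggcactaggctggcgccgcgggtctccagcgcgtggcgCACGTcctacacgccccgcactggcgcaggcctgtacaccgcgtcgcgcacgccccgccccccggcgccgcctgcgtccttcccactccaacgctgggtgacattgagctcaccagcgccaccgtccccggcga
DDIT4: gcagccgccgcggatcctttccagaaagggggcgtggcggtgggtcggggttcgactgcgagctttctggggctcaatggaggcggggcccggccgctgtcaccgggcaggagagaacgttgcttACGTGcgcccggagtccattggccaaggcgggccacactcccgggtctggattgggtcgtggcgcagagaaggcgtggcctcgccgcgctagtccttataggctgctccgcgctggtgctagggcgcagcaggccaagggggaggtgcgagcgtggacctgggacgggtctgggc
EGLN1: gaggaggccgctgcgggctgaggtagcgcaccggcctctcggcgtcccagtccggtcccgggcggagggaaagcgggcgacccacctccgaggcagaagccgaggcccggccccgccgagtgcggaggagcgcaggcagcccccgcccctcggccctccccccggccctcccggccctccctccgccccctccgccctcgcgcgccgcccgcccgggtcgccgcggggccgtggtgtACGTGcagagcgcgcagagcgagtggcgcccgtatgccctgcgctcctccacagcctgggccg
LDHA: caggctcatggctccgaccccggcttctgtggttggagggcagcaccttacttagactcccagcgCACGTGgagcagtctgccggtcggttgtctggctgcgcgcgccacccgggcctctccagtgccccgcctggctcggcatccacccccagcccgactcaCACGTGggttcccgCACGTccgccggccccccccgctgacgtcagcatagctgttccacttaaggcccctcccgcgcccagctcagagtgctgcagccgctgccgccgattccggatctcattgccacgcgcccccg

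The motif lay 84 bases before the start site in FAM162A, 125 in DDIT4 and 13 in EGLN1, and LDHA held 3 separate runs of it between 73 and 185 bases before the start. Of the 27305 promoters of the table, 21.6% held the motif. It was found in 5 of the 8 score genes with an entry and in 21 of 39 other targets of hypoxia-inducible factors, or 53.8%. Of the other genes of glucose uptake and glycolysis, 5 of 18 held it, or 27.8%. The share was 31.9% of the 91 promoters of genes that were higher in the score-high cells of TC71, beside 30.5% of the 2555 promoters of all genes measured there. The genes higher in TC71 thus carried these letters about as often as the measured genes did. The windows of PDK1, SLC2A1, PFKFB4, KDM3A and NRN1, which also differed in TC71, held 0 matches. Only ACGTG and its reverse complement were searched, so other forms of the core were not counted. A match is a description of letters and not a bound site.

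In TC71, the score-high cells differed from the other kept cells most in BNIP3 among the score genes. BNIP3 is encoded on the minus strand of chromosome 10 from 131967684 to 131981967 (GRCh38, GENCODE 44). Its level was 460.1 CPM (441 to 479) in the score-high cells and 52.3 CPM (50.4 to 54.2) in the others, and 44.7% of all BNIP3 UMIs of the kept cells lay in the score-high cells, which held 8.41% of all UMIs. A score-high TC71 cell had between 0 and 62 UMIs of BNIP3 with a median of 10, and another kept cell between 0 and 13 with a median of 1. In CHLA9 the levels were 101.7 and 51.6 CPM, with a median of 3 UMIs in a score-high cell and of 2 in another. The other kept cells of both lines thus had close levels of BNIP3, and the score-high cells did not.

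The remaining genes of the score also differed more in TC71, apart from ALDOA and VEGFA. PDK1 was at 51.0 CPM in the score-high cells of TC71 and 9.54 CPM in the others, SLC2A1 at 42.2 and 9.39 CPM, and P4HA1 at 94.2 and 23.5 CPM. In CHLA9 these 3 genes were at 4.78 and 1.85 CPM, at 25.9 and 11.6 CPM, and at 29.5 and 17.9 CPM. For the abundant enzymes the log2 ratio of score-high over other cells was 1.13 for PGK1, 0.95 for LDHA and 0.70 for ENO1 in TC71, against 0.47, 0.43 and 0.28 in CHLA9. VEGFA gave 1.12 in TC71 and 1.14 in CHLA9, and ALDOA 1.01 in both, but with few UMIs: 101 of VEGFA in the score-high cells of CHLA9 and 158 of ALDOA in those of TC71. These ratios follow in part from the choice, since a cell with a chance excess of a score gene is more likely to be taken.

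Each score gene was therefore also read in cells chosen by the other 8. In TC71, BNIP3 was still 7.61-fold higher in such cells (421.9 and 55.4 CPM), PDK1 4.79-fold, SLC2A1 4.10-fold, P4HA1 3.60-fold, PGK1 2.09-fold, LDHA 1.89-fold, VEGFA 1.84-fold, ALDOA 1.68-fold and ENO1 1.57-fold, and no interval held 1. In CHLA9 the ratio was 1.17 for BNIP3 (64.9 and 55.3 CPM) and between 1.12 and 1.197 for PGK1, LDHA, ALDOA, ENO1 and SLC2A1. PDK1 gave 1.43, with a log2 interval from 0.043 to 0.96 and under 5 CPM in either group. P4HA1 gave 0.888 and VEGFA 1.097, both with intervals that held 1. When the UMIs of each cell were split at random into 2 equal parts, with cells chosen on one and genes read in the other, BNIP3 gave 7.98-fold in TC71 and 1.31-fold in CHLA9.

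The score joins 4 glycolytic enzymes and 5 genes of the hypoxia response, and the overlap of the cells that each set picks was larger in TC71 than in CHLA9. Of the 173 top TC71 cells by PGK1, LDHA, ALDOA and ENO1, 107 or 61.8% were also among the top 173 by the other 5 genes. In CHLA9 the overlap was 57 of 452 cells, or 12.6%, where 10% are taken by each set. In thinned cells the scores of the 2 sets had a Spearman correlation of 0.14 over 1729 TC71 cells and -0.0013 over 4524 CHLA9 cells, as a description of cells that share a library. In TC71 cells chosen by the 4 enzymes alone, BNIP3 was 7.55-fold higher, PDK1 4.03-fold and SLC2A1 3.79-fold. In CHLA9 cells chosen the same way BNIP3 was 1.18-fold and PDK1 1.78-fold higher.

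**Figure D1:**
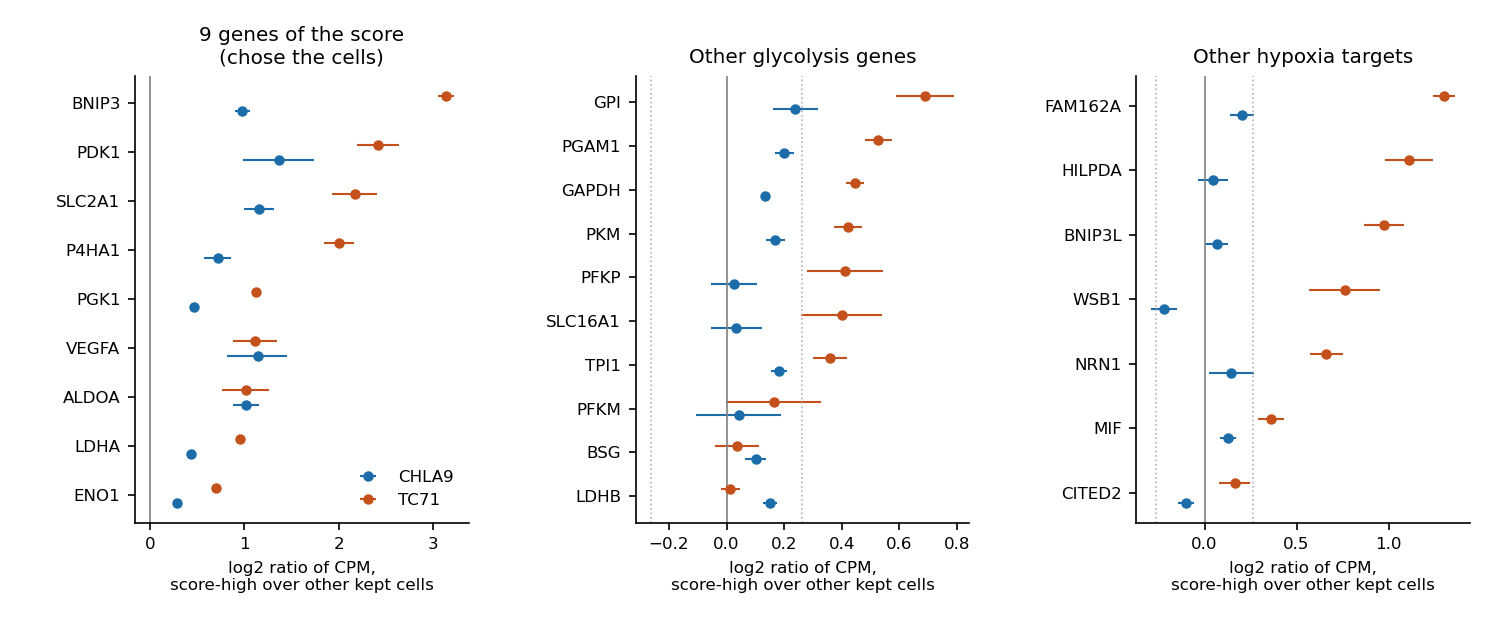
Log2 ratio of CPM in score-high over other kept cells for the score genes, the other glycolysis genes and the other hypoxia targets with at least 50 CPM in at least 1 line, with 95% counting intervals; dotted lines mark 1.2-fold. TC71 (orange) reaches 3.14 for BNIP3 and 1.30 for FAM162A, and CHLA9 (blue) stays within 1.2-fold for every gene of the middle and right panels.

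Targets of hypoxia-inducible factors outside the score were higher in the score-high cells of TC71, and those of CHLA9 were close to the other cells of their library. A gene was measured where it had at least 50 CPM over the kept cells of the library, and was counted as higher or lower past a 1.2-fold difference. By this rule, 3.63% of the 3144 genes measured in TC71 were higher and 6.2% lower (9.83% in either direction), and 1.13% of the 3440 genes measured in CHLA9 were higher and 4.94% lower (6.08% in either direction). Of 48 targets, 6 were measured in each line. In TC71, 5 of the 6 were higher, with a median log2 ratio of 0.82 beside -0.028 over all measured genes. In CHLA9, 0 of 6 were past the fold, with a median of 0.057 beside 0.0075 over all measured genes.

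FAM162A, a mitochondrial protein of the hypoxia response encoded on the plus strand of chromosome 3 from 122384161 to 122412334 (GRCh38, GENCODE 44), was at 561 CPM (540 to 582) in the score-high cells of TC71 and at 228 CPM (224 to 232) in the others, the highest ratio of all measured genes outside the score, with a log2 ratio of 1.30 (1.24 to 1.36). HILPDA, which blocks the breakdown of lipid droplets, was at 114.6 and 53.004 CPM (log2 ratio 1.11), and BNIP3L, the second mitophagy receptor of the BNIP3 family, at 163 and 83.0 CPM (0.98). NRN1, a neuronal surface protein, was at 237 and 149.96 CPM (0.66) and MIF, a cytokine, at 391 and 304 CPM (0.36). CITED2, which limits the activity of these factors by competing for the coactivators CREBBP and EP300, was at 245 and 219 CPM, short of 1.2-fold. All 6 targets were thus above 1 in TC71, as were 42.9% of all measured genes.

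In CHLA9 the same genes gave 140.9 and 122 CPM for FAM162A (log2 ratio 0.20), 86.3 and 83.5 CPM for HILPDA (0.048), 134.5 and 128.6 CPM for BNIP3L (0.066), 284 and 260.2 CPM for MIF (0.13), and 290.2 and 311 CPM for CITED2 (-0.10). WSB1, a ubiquitin ligase subunit, was at 114 and 133 CPM in CHLA9 (-0.22) and, under 50 CPM over all cells there, at 52.4 and 30.9 CPM in TC71 (0.76). The other kept cells of CHLA9 had more HILPDA and BNIP3L than the other kept cells of TC71, and less FAM162A.

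Most targets were too low to be measured by the 50 CPM rule, and 36 of them in TC71 and 37 in CHLA9 still had at least 50 UMIs. In TC71, 31 of the 36 had a counting interval wholly above a ratio of 1 and 0 wholly below, with a median log2 ratio of 0.98. Over all 9718 such genes outside the score in TC71, 10.1% had an interval above 1 and 4.55% below. In CHLA9, 6 of 37 were above and 5 below, beside 7.36% and 13.4% of 10937 genes. Of these low targets, 17 of 36 were at least 2-fold higher in TC71 beside 1.53% of all 9718 low genes there, and 1 of 37 in CHLA9 (NDRG1, with 17 and 79 UMIs), beside 0.567% of 10937.

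Some of the low targets, named here after their values were seen, had ratios as large as the score genes. DDIT4, an inhibitor of mTORC1, was at 115.6 CPM (106 to 126) in the score-high cells of TC71 and at 15.5 CPM (14.4 to 16.6) in the others, with a log2 ratio of 2.90 (2.74 to 3.06), and 40.7% of its UMIs lay in the score-high cells. In CHLA9 it was at 7.27 and 8.21 CPM. PFKFB4, which makes the activator of phosphofructokinase, was at 16.5 and 1.18 CPM in TC71, with 81 of its 144 UMIs in the score-high cells, and at 1.86 and 1.66 CPM in CHLA9. FUT11, a fucosyltransferase, was at 33.8 and 9.47 CPM, INSIG2, which holds back sterol synthesis, at 49.3 and 19.1 CPM, and AK4, a mitochondrial adenylate kinase, at 75.6 and 29.6 CPM in TC71. The same 3 genes in CHLA9 were at 8.20 and 7.42 CPM, 8.33 and 9.37 CPM, and 33.2 and 29.3 CPM.

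Members of the oxygen-sensing machinery itself are partly targets as well. EGLN1, the main prolyl hydroxylase, was at 56.7 and 29.1 CPM in TC71 (log2 ratio 0.96) and at 25.5 and 25.9 CPM in CHLA9. KDM3A, an oxygen-dependent histone demethylase, was at 56.5 and 28.3 CPM in TC71 (1.00) and at 31.6 and 33.1 CPM in CHLA9. HIF1A, the alpha subunit, was at 40.97 and 38.0 CPM in TC71 and at 38.8 and 43.5 CPM in CHLA9, and EPAS1 had at most 5 UMIs in either group of either line. Of 15 subunits and regulators of these factors, 0 of the 4 measured in TC71 were past the fold. In CHLA9, 1 of 6 was lower, the coactivator CREBBP at 66.6 and 80.2 CPM, beside 4.94% of all measured genes. RNA levels of the alpha subunits say nothing of the protein, which is held mainly through its breakdown.

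Cell by cell, 41 targets outside the score and outside sugar metabolism took between 7.33 and 65.0 UMIs per 10000 in the score-high cells of TC71, with a median of 24.0, and between 4.27 and 31.3 with a median of 14.6 in the others. The groups overlap. In TC71, 133 of 173 score-high cells, or 76.9% (69.9 to 82.9), were above the 90th percentile of the other kept cells. In CHLA9 the medians were 15.03 and 14.92 per 10000, and 53 of 452 score-high cells, or 11.7% (8.91 to 15.1), were above that percentile, beside 10.0% of the other cells by construction. RNA of hypoxia targets that the score did not use was thus higher in the score-high cells of TC71. In those of CHLA9 it was close to the other kept cells. Oxygen and the protein of the factors were not measured, so the score-high cells of both lines are called only by their rule.

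**Figure D2:**
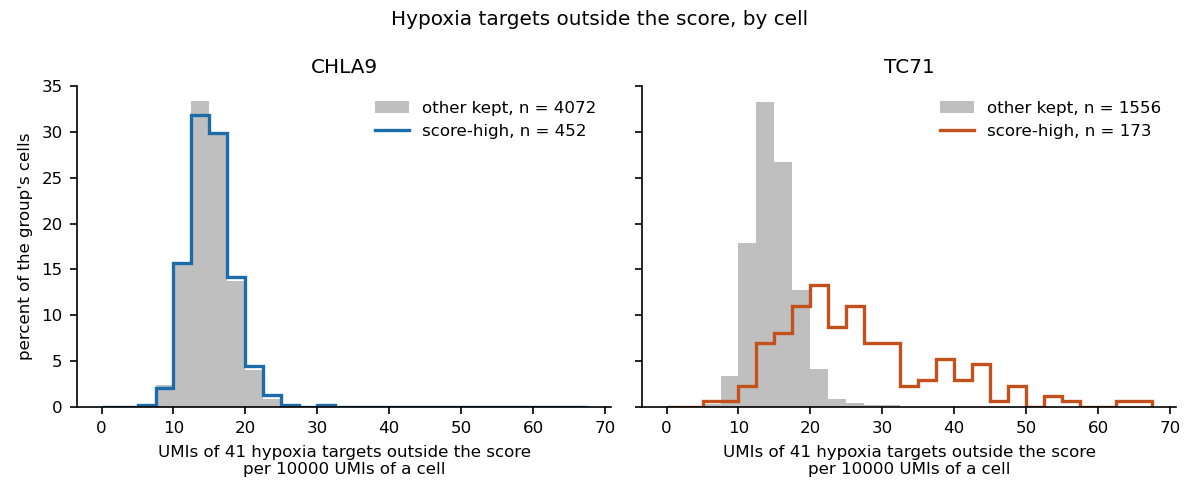
Percent of cells by their UMIs of 41 hypoxia targets outside the score per 10000 UMIs, in other kept cells (grey) and score-high cells (line), for each line. The 2 groups lie over each other in CHLA9 (medians 15.03 and 14.92), and the score-high cells of TC71 reach from 7.33 to 65.0 with a median of 24.0.

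The genes of glucose uptake and glycolysis outside the score followed the same order. In TC71, 7 of the 10 measured were higher and 0 lower, beside 3.63% of all measured genes higher, with a median log2 ratio of 0.41. In CHLA9, 0 of 9 were past the fold, with all 9 above 1, beside 52.5% of all measured genes, and a median of 0.15. GPI, which turns glucose 6-phosphate into fructose 6-phosphate, was at 187 and 115.7 CPM in TC71 (log2 ratio 0.69) and at 93.6 and 79.4 CPM in CHLA9 (0.24). PGAM1 was at 828 and 575 CPM in TC71 (0.53) and at 537 and 468 CPM in CHLA9 (0.20). GAPDH was at 2044 and 1500.2 CPM in TC71 (0.45) and at 2671 and 2434 CPM in CHLA9 (0.13). Both groups of CHLA9 had more GAPDH than either group of TC71.

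PKM, the pyruvate kinase, gave a log2 ratio of 0.42 in TC71 and 0.17 in CHLA9, TPI1 0.36 and 0.18, PFKP, the platelet type phosphofructokinase, 0.41 and 0.026, and the lactate exporter SLC16A1 0.40 and 0.034. The 3 measured genes short of the fold in TC71 were PFKM with 0.16, BSG, the chaperone of the lactate exporters, with 0.037, and LDHB, whose product favours pyruvate over lactate, with 0.013. LDHA, which favours lactate, was a gene of the score. Several of these genes, among them GAPDH, PGK1 and ENO1, have processed pseudogenes, and reads shared with those were not resolved. In the pentose phosphate pathway, 1 of 5 measured genes was higher in TC71 (PGLS, log2 ratio 0.29), beside 3.63% of all measured genes, and 0 of 4 in CHLA9. Of 9 genes of glycogen metabolism, 3 were measured in TC71 and 1 in CHLA9, none past the fold.

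Along the whole range of the score, hypoxia targets in TC71 departed from the other cells at the top and stayed level below. The 41 targets outside the score summed to 4503 CPM in the top 1% of TC71 cells (17 cells), 3821 in the next 1%, 2880 between 2 and 5% and 1920 between 5 and 10%, then 1564 between 10 and 20% and from 1469 to 1489 CPM in the 4 lower bins of 20%. BNIP3 went from 1054 CPM in the top 1% to 97.9 CPM between 10 and 20% and 26.7 CPM in the lowest 20%. In CHLA9 the targets summed to between 1491 and 1570 CPM in every bin. Glycolysis genes outside the score went from 5089 CPM in the lowest bin to 8304 CPM in the top 1% in TC71. In CHLA9 they went from 5283 CPM in the lowest bin to 6004 CPM between 10 and 20%, and the counting intervals of neighbouring bins above that limit overlapped, at 6180 to 6376 CPM. The 10% limit in TC71 thus takes cells of unlike levels, the upper 5% being further from the rest than the cells between 5 and 10%.

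**Figure D3:**
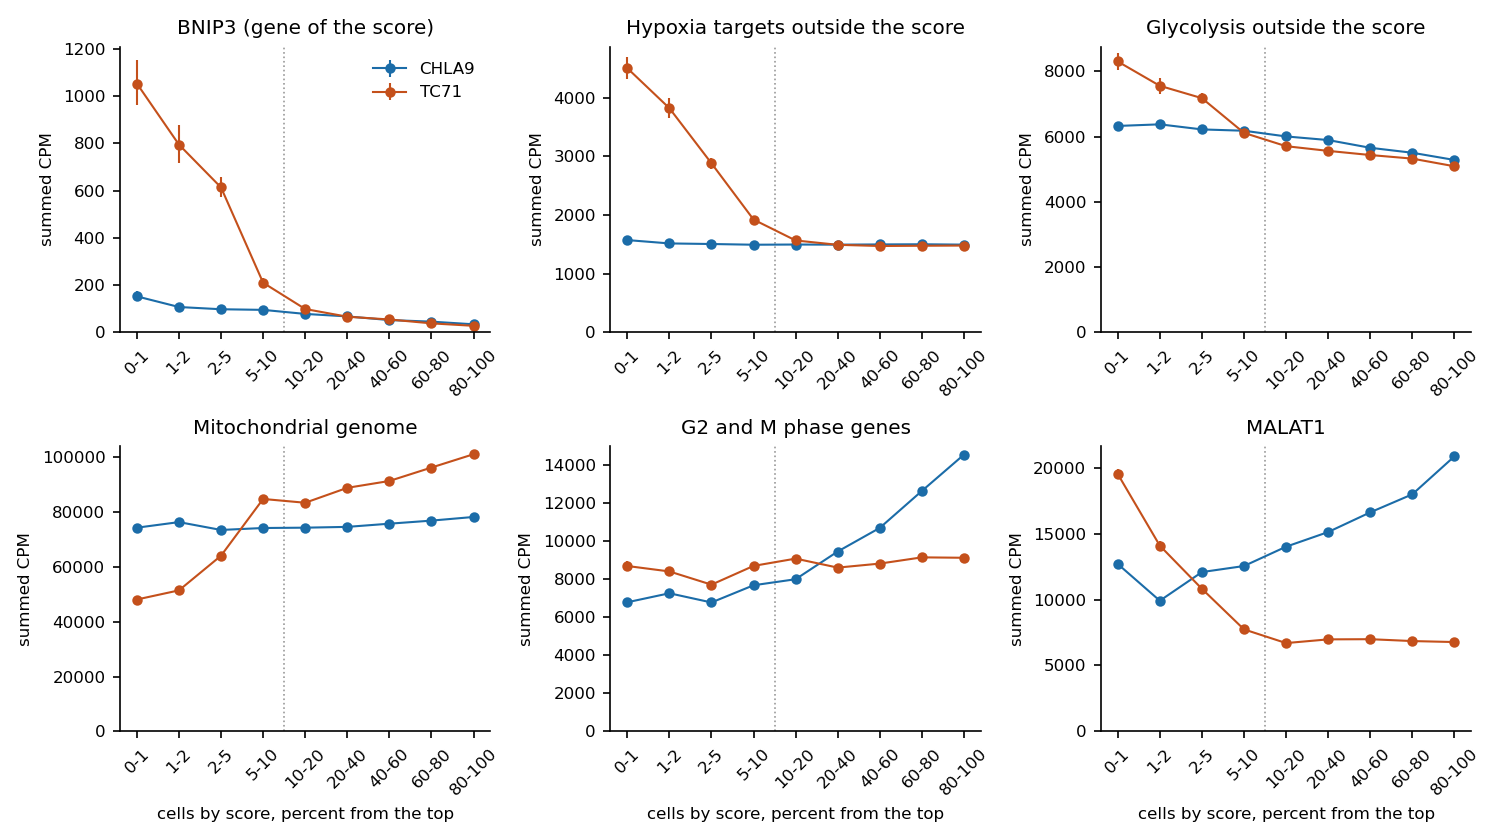
Summed CPM with 95% Poisson intervals in cells ordered by score, from the top 1% on the left to the lowest 20% on the right; the dotted line marks the 10% limit. In TC71 hypoxia targets outside the score go from 1477 in the lowest bin to 4503 CPM and mitochondrial genes drop from 101175 to 48157 CPM, while in CHLA9 G2 and M phase genes drop from 14520 to 6777 CPM.

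Genes of the mitochondrial genome, which code for core subunits of the respiratory complexes and ATP synthase, were lower in the score-high cells of TC71. Of 12 measured, 8 were lower and 1 higher in TC71, beside 6.2% of all measured genes lower and 3.63% higher, with a median log2 ratio of -0.40. In CHLA9, 0 of 12 were past the fold, all 12 below 1 with a median of -0.059, beside 47.5% of all measured genes below 1. MT-ATP6 was at 7850.1 and 11873 CPM in TC71 (log2 ratio -0.60), MT-ND2 at 2143 and 3220.2 CPM (-0.59) and MT-CYB at 5797 and 8363 CPM (-0.53). MT-ND6, the one gene measured from the light strand, was the one higher, at 376 and 280.5 CPM (0.42). The nuclear genes of complexes I, III, IV and V did not share this: 0 of 72 were higher and 1 lower in TC71 (UQCRFS1, log2 ratio -0.27), with a median of -0.011. In CHLA9 they were all within 1.2-fold, but 70 of 72 were above 1, beside 52.5% of all measured genes, with a median of 0.12. Pyruvate dehydrogenase and the citric acid cycle gave medians of -0.014 in TC71 and 0.076 in CHLA9. In CHLA9, 1 gene of 16 was lower (FH, log2 ratio -0.30), beside 4.94% of all measured genes.

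Depth and mitochondrial percent moved with the score in TC71. The median was 28489 UMIs in score-high cells and 33724 in the others, and the median mitochondrial percent was 6.93 and 9.18. Of the score-high cells, 17.3% lay over 3 median absolute deviations from the library median of UMIs, genes or mitochondrial percent, beside 5.08% of the others. In CHLA9 the medians were 33576 and 34776 UMIs, 7.46 and 7.59 mitochondrial percent, and the shares 3.76% and 4.81%. Of the 6 measured hypoxia targets, 5 were higher in TC71 when such cells were left out or when the top 10% was taken within each of 10 bins of UMIs, and 6 among cells with at most 10% mitochondrial UMIs. The number of lower genes in TC71 did move, from 195 to 129, 94 and 455 in the same 3 settings. The part of depth and mitochondrial percent in these results was not tested.

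Nuclear RNAs went in opposite directions in the 2 lines. MALAT1, a long noncoding RNA held in the nucleus, was at 10335.5 and 6882 CPM in TC71 (log2 ratio 0.59) and at 12144 and 17276 CPM in CHLA9 (-0.51). NEAT1, which scaffolds paraspeckles, was at 1398 and 941 CPM in TC71 (0.57) and KCNQ1OT1 at 151 and 113 CPM (0.41). All 3 measured RNAs of this list were thus higher there, beside 3.63% of all measured genes. In CHLA9 all 3 measured were below 1, beside 47.5% of all measured genes. Only MALAT1 was past the fold there, beside 4.94% of all measured genes lower. Within G1, S and G2M, MALAT1 gave -0.17, -0.31 and -0.53 in CHLA9 and 1.29, 0.77 and 0.53 in TC71. In the top 1% of TC71 cells MALAT1 reached 19513 CPM. With 1 library a line, the contrast between the lines has no test, and the part of phase in it was not tested.

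Chaperones were lower in the score-high cells of TC71, where 6.2% of all measured genes were lower. Of 9 measured cytosolic heat shock proteins, 6 were lower and 0 higher in TC71, with a median log2 ratio of -0.31, and 0 of 8 were past the fold in CHLA9, with a median of 0.078. HSPA1A, the inducible HSP70, was at 38.9 and 63.8 CPM in TC71 and HSPH1, its exchange factor, at 289 and 472 CPM. Of 11 measured genes of the unfolded protein response, 3 were lower in TC71 (HSPA5, DNAJB11 and SDF2L1, log2 ratios -0.45, -0.40 and -0.47) and 0 of 8 in CHLA9. All 12 measured mesenchymal, matrix and cytoskeletal genes were above 1 in TC71, beside 42.9% of all measured genes, with a median log2 ratio of 0.12. Past the fold were 2, S100A10 at 138 and 81.1 CPM (0.77) and VIM at 1611 and 1218 CPM (0.40), beside 3.63% of all measured genes higher. In CHLA9, 8 of 12 were above 1, beside 52.5% of all measured genes. There 1 was past the fold, TIMP1 at 87.1 and 65.2 CPM (0.42).

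**Figure D4:**
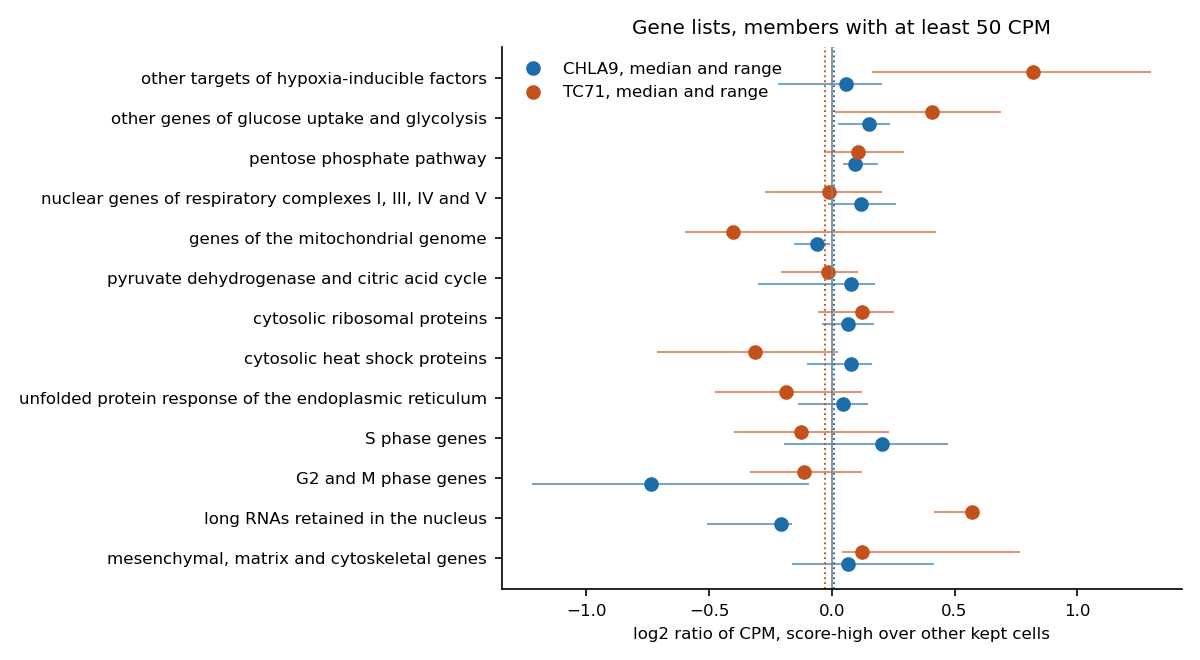
Median (point) and range (line) of the log2 ratio of CPM in score-high over other kept cells, over the measured members of each gene list, with the median of all measured genes as a dotted line for each line. Hypoxia targets stand at 0.82 in TC71 and 0.057 in CHLA9, and G2 and M phase genes at -0.74 in CHLA9 and -0.11 in TC71.

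Cell cycle genes differed most between score-high and other cells of CHLA9 among the lists examined. Of 45 measured genes of G2 and M phase, 40 were lower and 0 higher in CHLA9, beside 4.94% of all measured genes lower, with a median log2 ratio of -0.74. In TC71, 4 of 45 were lower (CDC20, RANGAP1, ANLN and CENPE), beside 6.2% of all measured genes, with a median of -0.11. Nothing is read from this count in TC71. CENPE, a kinetochore motor, was at 87.7 and 193 CPM in CHLA9 (log2 ratio -1.14), TOP2A, the topoisomerase that untangles sister chromatids, at 442.5 and 904 CPM (-1.03), KIF14, a kinesin of cytokinesis, at 50.3 and 111 CPM (-1.14) and NDC80, a kinetochore subunit, at 48.7 and 91.9 CPM (-0.92). In CHLA9 cells chosen by the 4 enzymes alone 43 of these genes were lower, and in those chosen by the other 5 score genes 18. In TC71 the same 2 choices gave 21 and 0 of 45, with medians of -0.26 and -0.033, so that the number in each line rests on the genes of the score. In TC71 TOP2A was at 286 and 271 CPM and KIF14 at 62.2 and 57.7 CPM, both above 1 and within 1.2-fold.

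Some genes of S phase entry were higher in the score-high cells of CHLA9. Of 33 measured S phase genes, 9 were higher and 0 lower, with a median of 0.20, beside 1.13% of all measured genes higher. The other 24 were within 1.2-fold. UNG, which removes uracil from DNA, was at 89.0 and 64.1 CPM (log2 ratio 0.47), DTL, a substrate receptor of the CUL4 ligase at replication forks, at 115.0 and 85.3 CPM (0.43), GINS2, a subunit of the replicative helicase, at 91.1 and 67.7 CPM (0.43) and MCM5, another helicase subunit, at 157 and 122 CPM (0.36). In TC71, 6 of 32 S phase genes were lower and 0 higher, beside 6.2% of all measured genes lower. Among the lower was GMNN, the inhibitor of licensing, at 125 and 165 CPM (-0.40).

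Phases were called on cells thinned to 5000 UMIs from the same lists of S and of G2 and M phase genes. They therefore restate the ratios above and are no separate support. In CHLA9, 65.7% of score-high cells were in S (61.1 to 70.1) and 23.9% in G2M (20.0 to 28.1), beside 45.01% and 49.2% of the other kept cells. In TC71, 16.2% of score-high cells were in G1 (11.03 to 22.5) beside 3.73% of the others, and 49.1% and 57.6% were in G2M. Without thinning the S share of score-high CHLA9 cells was 70.8%, and the G1 share of score-high TC71 cells was 11.6% beside 0.4499% of the others. These intervals count cells of 1 library, and the part of free RNA in the calls was not tested.

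Within a phase, the summed hypoxia targets outside the score were still higher in TC71, with a log2 ratio of 1.06 in G1 (28 score-high cells), 0.72 in S (60 cells) and 0.78 in G2M (85 cells). In CHLA9 the same ratio was 0.017, 0.011 and 0.0050. The G2 and M phase genes of CHLA9 gave 0.074 in G1, -0.19 in S and -0.35 in G2M. Phases were called from these same genes, so a smaller difference within a phase, or with cells taken within phases, follows from the calls. When the top 10% was taken within each phase, 30 of the G2 and M genes were lower in CHLA9, and the number of all lower genes was 91 in place of 170.

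Of 2677 genes measured in both lines, 30 (1.12%) were higher in CHLA9 and 77 (2.88%) in TC71. With shares this small, nothing is read from the 0 genes higher in both. Lower in both were 9 genes, or 7.38% of the 122 lower in CHLA9, beside 6.09% of all 2677 genes that were lower in TC71, and 5.52% of the 163 lower in TC71, beside 4.56% lower in CHLA9. The overlap was thus near the share over all genes, and nothing is read from it. The 9 genes were CCNB1, CDC20, CENPE, ANLN, DBF4, H2AFX, KPNA2, RANGAP1 and SFPQ. CCNB1, the cyclin of mitotic entry, gave log2 ratios of -0.83 in CHLA9 and -0.39 in TC71, KPNA2, an importin, -0.67 and -0.34, and SFPQ, a splicing factor of paraspeckles, -0.35 and -0.31. DBF4, the activator of the CDC7 kinase, gave -0.46 and -0.32, H2AFX, the histone variant of the damage response, -0.45 and -0.27, and RANGAP1, an activator of the RAN GTPase, -0.55 and -0.29.

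For the genes with the largest smaller ratio of the 2 lines on the higher side, that smaller ratio stayed near 1.2-fold. The genes were RGS10, a regulator of G protein signals (log2 ratios 0.26 in CHLA9 and 0.28 in TC71), IFITM3, an interferon-induced membrane protein (0.25 and 0.36), and FCGRT, the neonatal Fc receptor (0.31 and 0.24). Also among them were TSPO, an outer mitochondrial membrane protein (0.21 and 0.22), SLC25A37, the mitochondrial iron importer (0.23 and 0.21), HADHB, an enzyme of fatty acid oxidation (0.23 and 0.20), and CDT1, a replication licensing factor (0.22 and 0.20). The others were the glycolytic genes GPI (0.24 and 0.69) and PGAM1 (0.20 and 0.53) and the hypoxia target FAM162A (0.20 and 1.30), whose TC71 ratios were larger. Across the 2677 genes, the log2 ratios of the 2 lines had a Spearman correlation of -0.099, as a description over genes of 1 library a line.

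Some genes lay past the fold in opposite directions. Of the 30 genes higher in CHLA9, 6 were lower in TC71 (NEFH, CD3EAP, GINS2, DCTPP1, EBNA1BP2 and FABP5), beside 6.09% of all 2677 genes. Of the 122 lower in CHLA9, 4 were higher in TC71 (MALAT1, ROBO2, GOLGB1 and HIST1H1E), beside 2.88% of all. The genes are given as a description, and nothing is read from these counts. NEFH, the heavy neurofilament, was at 84.4 and 58.2 CPM in CHLA9 (log2 ratio 0.54) and at 218 and 286 CPM in TC71 (-0.39). CD3EAP, a subunit of RNA polymerase I, was at 69.9 and 57.8 CPM in CHLA9 (0.27) and at 40.8 and 62.5 CPM in TC71 (-0.62). RRS1 and PNO1, which act in ribosome assembly, gave log2 ratios of -0.94 and -0.61 in TC71 and 0.11 and 0.058 in CHLA9.

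**Figure D5:**
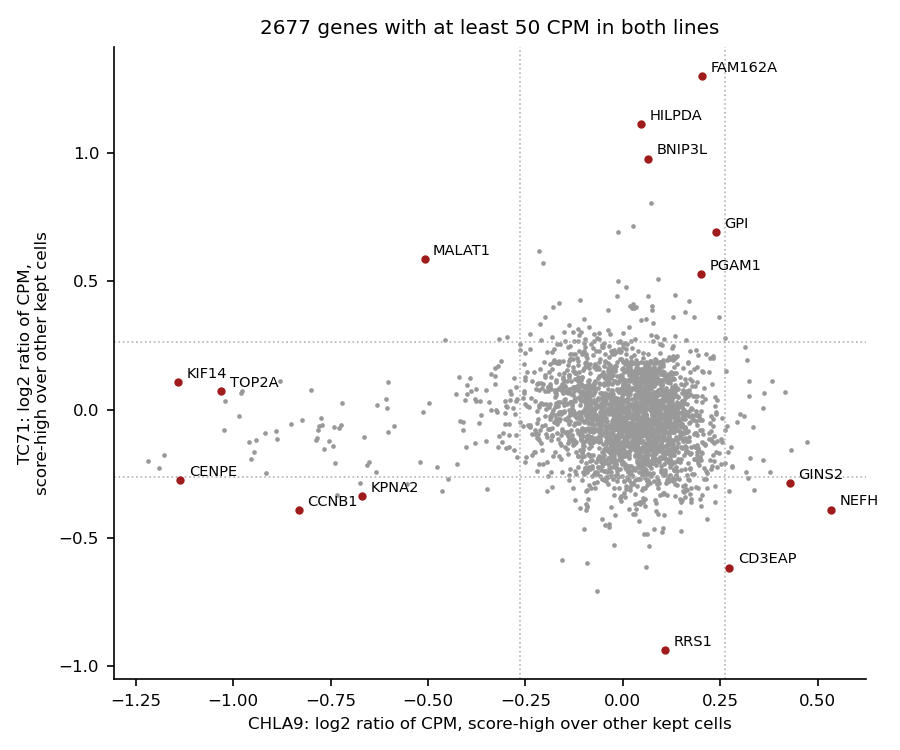
Each point is 1 of 2677 genes, by its log2 ratio of CPM in score-high over other kept cells in CHLA9 (x axis) and TC71 (y axis); dotted lines mark 1.2-fold and red points carry names. The upper right corner past both lines is empty, with 1.12% of the genes higher in CHLA9 and 2.88% in TC71. Hypoxia targets such as FAM162A stand high on the TC71 axis, and mitotic genes spread to the left on the CHLA9 axis.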

How the data were processed

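The deposited files hold raw UMI counts per gene and barcode, which the authors made with Cell Ranger 3.1.0 and its hg38 reference, without normalization, for 33538 genes. The members and the gene lists were chosen with earlier results of these data known. In each library UMIs were summed over score-high and other kept cells and divided by the group's total (CPM). CPM have exact Poisson, ratios exact binomial and shares exact Clopper-Pearson 95% intervals, all for counting error only. Rule genes stayed out of the other lists and counts. Named were the 9 rule genes, glycolysis genes and hypoxia targets with at least 50 CPM in 1 line, the 10 highest and 10 lowest in both lines, and per line the 5 with the largest difference between lines. Examples from other lists and the low targets were picked after their values were seen. Phases and genes per cell used cells thinned to 5000 UMIs, with genes in at least 10 cells. Scrublet in scanpy 1.11.5 called 12 cells in each library (0.265% and 0.694%), and these were kept. numpy 2.4.6, scipy 1.17.1, pandas 2.3.3 and Python 3.11.15 were used, and the sums and ratios were tested on simulated data. Alternatives changed the score, the share taken, cell filters, depth, phase, scaling, level limit and fold. The line CHLA10 of the series was not analysed here.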

Additional observations from a re-analysis of the deposited data

Results flagged for a closer look

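Of the named genes, 4 lay past 1.2-fold in opposite directions in the 2 lines. These 4 were named for their large difference between the lines, so the count is not read as a result. MALAT1 gave a log2 ratio of -0.51 in CHLA9 and 0.59 in TC71. NEFH gave 0.54 in CHLA9 and -0.39 in TC71, GINS2 0.43 and -0.29, and CD3EAP 0.27 and -0.62. Each line has 1 library, so these differences between the lines were not tested.

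BNIP3 was also present in barcodes that the filters removed. In the 5869 TC71 barcodes under 5000 UMIs, BNIP3 was at 95.9 CPM (89.5 to 102.5), above the 86.6 CPM (84.2 to 89.0) of the kept cells of that library. In the same barcodes the 9 score genes summed to 2984 CPM (2948 to 3020.1), below the 3109 CPM (3095 to 3124) of the kept cells, and the 41 hypoxia targets outside the score summed to 1585 CPM beside 1582 CPM, with overlapping intervals. The 601 TC71 barcodes over the mitochondrial limit had 40.7 CPM of BNIP3.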

How the results depend on the processing

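Hypoxia targets higher in TC71 stayed between 4 and 6 under each alternative that kept the 50 CPM limit, and in CHLA9 at 0 except at 1.1-fold and without a level limit. Their median log2 ratio ran from 0.48 to 1.15 in TC71 and from -0.017 to 0.069 in CHLA9. The median of mitochondrial genes in TC71 ran from -0.69 to -0.26, and that of G2 and M genes in CHLA9 from -1.04 to -0.23. Of 240 counts under alternatives, 178 stayed within 1.5 times the reported count, and the 62 others follow, with the shares of phases that left their interval; the cause was not tested. With the score on cells thinned to 5000 UMIs, CHLA9 had 8 genes higher, 84 genes lower, 60.6% of score-high cells in S and 31.6% of score-high cells in G2M, and TC71 had 101 genes lower. With the top 5% of cells, CHLA9 had 71 genes higher, and TC71 had 297 genes higher, 617 genes lower and 13 G2 and M genes lower. With the top 20%, TC71 had 21 genes higher, 14 genes lower, 3 glycolysis genes higher and 0 G2 and M genes lower. With the 4 enzymes alone, CHLA9 had 62 genes higher and 1 glycolysis gene higher, and TC71 had 21 G2 and M genes lower. With the other 5 genes alone, CHLA9 had 3 genes higher, 36 genes lower and 18 G2 and M genes lower, and TC71 had 0 G2 and M genes lower. In UMIs that did not choose the cells, CHLA9 had 22 genes higher. With at most 10% mitochondrial UMIs, TC71 had 189 genes higher, 455 genes lower and 14 G2 and M genes lower. Without cells past 3 median absolute deviations, TC71 had 129 genes lower and 1 G2 and M gene lower. Without the top 8% of Scrublet scores, CHLA9 had 1 glycolysis gene higher. Within 10 bins of UMIs, TC71 had 94 genes lower and 1 G2 and M gene lower. Within phases, CHLA9 had 16 genes higher and 91 genes lower, and TC71 had 111 genes lower and 0 G2 and M genes lower. Over UMIs that are not mitochondrial, TC71 had 314 genes lower. With at least 20 CPM, CHLA9 had 85 genes higher and 411 genes lower, and TC71 had 381 genes higher, 427 genes lower and 17 hypoxia targets higher. Without a level limit, CHLA9 had 3655 genes higher, 7613 genes lower, 10 hypoxia targets higher and 4 glycolysis genes higher, and TC71 had 4997 genes higher, 6548 genes lower, 44 hypoxia targets higher and 17 glycolysis genes higher. At 1.1-fold, CHLA9 had 363 genes higher, 506 genes lower, 1 hypoxia target higher, 5 glycolysis genes higher and 1 mitochondrial gene lower, and TC71 had 425 genes higher, 751 genes lower and 17 G2 and M genes lower. At 1.5-fold, CHLA9 had 0 genes higher and 58 genes lower, and TC71 had 12 genes higher, 8 genes lower, 1 glycolysis gene higher, 0 G2 and M genes lower and 2 mitochondrial genes lower. Without cells under 2% mitochondrial UMIs, chosen after seeing the data, TC71 had 2 G2 and M genes lower. Without cells under 10000 UMIs, chosen after seeing the data, TC71 had 1 G2 and M gene lower. Without thinning, CHLA9 had 7.08% of score-high cells in G1 and 70.8% of score-high cells in S. Of 1856 log2 ratios of named genes under alternatives, 2 changed sign from past the fold, both of P4HA1 in CHLA9: -0.064 in cells chosen by the 4 enzymes and -0.083 in UMIs that did not choose the cells. No paired analysis was possible because the groups are cells of the same single library.

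With 1 library per line, no spread between cultures is known, so nothing here can be generalised over cultures of a line. The 173 score-high cells of TC71 held 4905906 UMIs and the 452 of CHLA9 16092464, so a low target has a wide interval in TC71. A 3′ count does not resolve isoforms or most pseudogenes.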

Other observations

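The medians of further lists stand beside those of all measured genes, -0.028 in TC71 and 0.0075 in CHLA9. Of all measured genes, 3.63% were higher and 6.2% lower in TC71, and 1.13% higher and 4.94% lower in CHLA9. Nothing is read from lists with only 1 or 2 genes past the fold. The 74 cytosolic ribosomal proteins had 73 members above 1 in TC71 and 70 in CHLA9, with medians of the log2 ratio of 0.12 and 0.065, and 0 past 1.2-fold in either line, while 42.9% of all measured genes were above 1 in TC71 and 52.5% in CHLA9. Of the MYC network and its nucleolar targets, 2 of 10 were lower in TC71, NOP58 (log2 ratio -0.36) and NOP56 (-0.27), which build box C/D ribonucleoproteins, and 0 of 11 were past the fold in CHLA9, with medians of -0.15 and 0.11. Of the targets of ATF4, SHMT2 of mitochondrial serine use was higher in TC71 (0.27) and PSAT1 of serine synthesis lower (-0.27), with 13 measured, and the glutamine transporter SLC1A5 was the only one of 12 past the fold in CHLA9 (0.28), with medians of -0.13 in TC71 and 0.028 in CHLA9. Cholesterol genes (6 measured in CHLA9, 7 in TC71) and immediate early genes (3 in each) had 0 past the fold. Of the targets of p53, 1 of 3 was lower in CHLA9 (MDM2, log2 ratio -0.27) and 0 of 2 past the fold in TC71, with medians of -0.17 and -0.16.

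Genes known as activated by EWSR1-FLI1 were mostly within the fold. In CHLA9, 1 of 13 was higher, the neuropeptide CCK at 1976 and 1641 CPM (0.27), beside 1.13% of all measured genes. In TC71, 1 of 14 was higher, the Wnt antagonist DKK2 at 63.6 and 50.5 CPM (0.33), beside 3.63% of all measured genes. Nothing is read from 1 gene in each line. Genes known as repressed by the fusion were all under 50 CPM in both lines.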
